A study of Mus musculus with 110 samples.

Results

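Epididymal white adipose tissue (eWAT), the visceral fat pad beside the epididymis, was compared between mice exposed to cold (Ctrl_CE) and mice kept at room temperature (Ctrl_RT), both fed the control diet. The comparison took 14 of the 110 libraries of the series, 7 in each group, chosen as all eWAT libraries labelled with the control diet. The series crossed a methionine-restricted diet (MetR, 0.12% methionine by the labels) with cold in several tissues. The mice were wild-type male C57BL/6N, housed singly and 16 weeks old at the end. Ctrl_RT mice ate the control diet, with 0.86% methionine by the labels and no added cysteine, for 7 days at 22 °C. Ctrl_CE mice ate the same diet for 7 days and then spent 24 h at 4 °C. The cold therefore came as an added day on the diet, and that day and the cold cannot be told apart. Each library came from 1 mouse, and no mouse gave a library to both groups. The study left Ctrl_RT replicates 2, 4 and 5 out as outliers, so each result stands here with all 7 Ctrl_RT libraries and again with the 4 that remain (replicates 1, 3, 6 and 7).

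White adipocytes store fatty acids as triglyceride and release them by lipolysis. In the cold, sympathetic nerves release noradrenaline onto the beta-adrenergic receptors of fat, which raises cAMP and starts lipolysis. In brown fat, and in white pads that brown, the same signal turns on UCP1, the protein that lets mitochondria make heat. The epididymal pad is known as a white depot that browns little. White fat also makes fatty acids from glucose, a pathway controlled by the transcription factors SREBP1 and ChREBP, while SREBP2 controls cholesterol synthesis.

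The pad lies against the epididymis and the reproductive ducts, and RNA of those organs was present in some libraries. Levels are given as CPM, counts scaled to a common library size, after TMM scaling, a normalization that corrects for libraries taken up by a few genes. Summed over the marker list of the epididymal epithelium, the level was 10608 CPM in Ctrl_RT 2 and between 0.2 and 33.3 CPM in the other 13 libraries. The list for male accessory glands, such as the seminal vesicle, reached 6701 CPM in Ctrl_RT 5, 935 CPM in Ctrl_RT 6 and 65.9 CPM in Ctrl_CE 7. The list for germ cells reached 3016 CPM in Ctrl_RT 5, 1733 CPM in Ctrl_RT 4 and 152 CPM in Ctrl_RT 2, against at most 21.8 CPM in the cold. A list of ciliated and absorptive duct genes, added after the values were seen, was above 100 CPM in Ctrl_RT 2, 4, 5 and 6 and in Ctrl_CE 1, 2, 4 and 6. The duct list was highest in Ctrl_CE 2 and Ctrl_RT 6, at 597 and 587 CPM, and the other 3 lists in Ctrl_RT 2 or 5. RNA of the reproductive tract was thus not limited to the 3 libraries the study left out.

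**Figure D1:**
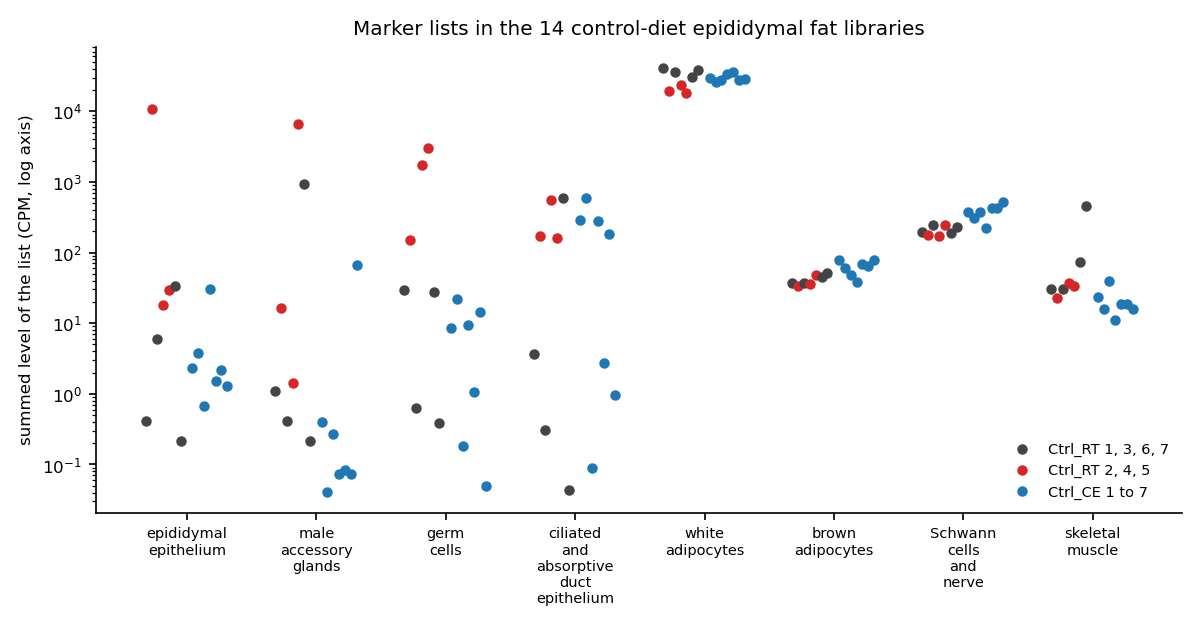
Summed level of each marker list (CPM, log axis) in the 14 control-diet epididymal fat libraries, 1 point per library, with Ctrl_RT 1, 3, 6 and 7 in grey, Ctrl_RT 2, 4 and 5 in red and Ctrl_CE in blue. The list of epididymis peaks in Ctrl_RT 2 at 10608 CPM and those of accessory glands and germ cells in Ctrl_RT 5 at 6701 and 3016 CPM, while the white adipocyte list lies between 18300 and 40755 CPM in every library.

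The tissue label was checked with a list of 10 white adipocyte markers, among them Adipoq, Plin1, Lipe and Lep, which summed to between 18300 and 40755 CPM in Ctrl_RT and between 25826 and 35647 CPM in Ctrl_CE. Its lowest values were in the libraries left out, with 19660, 23379 and 18300 CPM in Ctrl_RT 2, 4 and 5. Library depth was between 25113246 and 31508742 counts in Ctrl_RT and between 22625093 and 28467279 in Ctrl_CE.

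With all 7 Ctrl_RT libraries, 460 of 31464 genes tested were higher in the cold (1.46%) and 2135 were lower (6.79%), at an adjusted p under 0.05 and a fold of at least 1.5. Without Ctrl_RT 2, 4 and 5, 415 of 29657 genes were called, 144 of them higher (0.486%) and the others lower (0.914%). Leaving out a single library moved the first 2 counts to between 124 (without Ctrl_CE 7) and 565 (without Ctrl_CE 4) higher genes, and to between 86 (without Ctrl_CE 7) and 2930 (without Ctrl_RT 3) lower genes. Of the 460 higher genes, 104 (22.6%) were called again and none turned negative, whereas of the 2135 lower genes only 126 (5.9%) were called again and 353 (16.5%) turned positive. In 1975 of the 2135 lower genes (92.5%) the highest Ctrl_RT library was replicate 2, 4 or 5. The lists of lower genes with 7 Ctrl_RT libraries included 8 of 18 epididymal, 6 of 7 accessory gland and 8 of 9 germ cell markers, none of which was called without the 3 libraries. The median log2 fold change over all genes tested was -0.21 with 7 Ctrl_RT libraries and -2.62e-05 without the 3, and list medians are to be read against these. Counts of list members called are to be read against the shares of all genes called in the same fit and direction. Groups did not overlap, with every Ctrl_CE library above every Ctrl_RT library, in 232 genes (0.737%), and every Ctrl_CE library was below in 114 genes (0.362%). As bulk RNA was measured, fewer cells of a type and less RNA per cell cannot be told apart in any of these results.

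**Figure D2:**
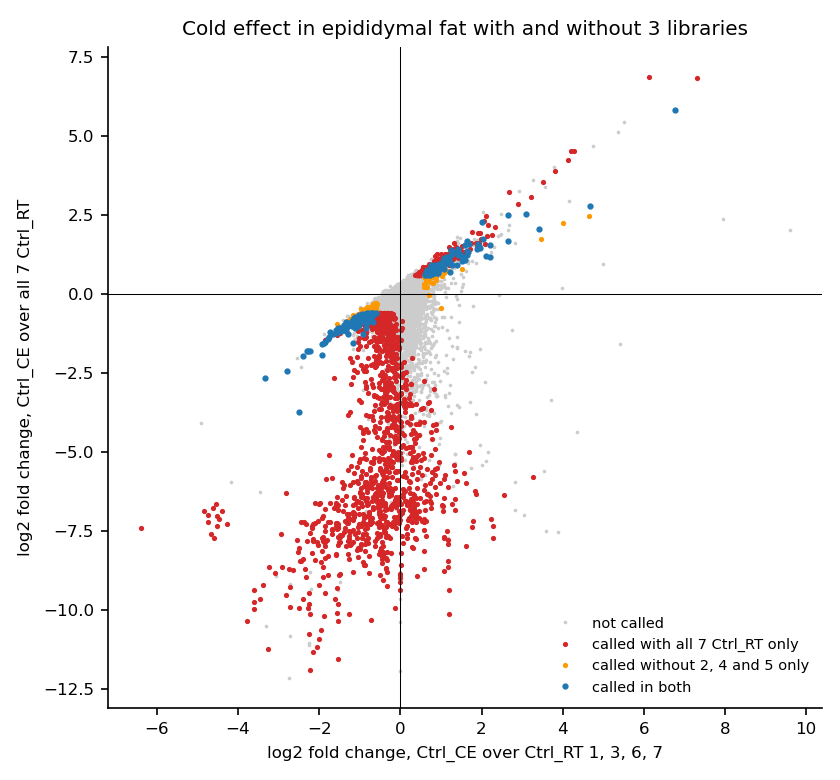
Log2 fold change in the cold with all 7 Ctrl_RT libraries (vertical axis) against that without Ctrl_RT 2, 4 and 5 (horizontal axis), 1 point per gene with a mean of at least 1 CPM, coloured by the fits that called it. The 205 genes called in both fits (blue) lie in the upper right and lower left, and a cloud of genes called with all 7 Ctrl_RT libraries only (red) is strongly negative on the vertical axis but spread around 0 on the horizontal axis.

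The genes of fatty acid synthesis had higher medians in the cold, with wide spread among mice. Of the 21 genes on the list of fatty acid synthesis and NADPH supply, 12 were called higher and 0 lower with 7 Ctrl_RT libraries, with a median log2 fold change of 1.23. Without the 3 libraries the median was 1.31, and only Mid1ip1 was called. Mid1ip1, whose product helps acetyl-CoA carboxylase to polymerize, ranged from 47.8 to 282.4 CPM in Ctrl_RT, with a median of 83.2, and from 110 to 428 CPM in Ctrl_CE, with a median of 251. Its log2 fold change was 1.20 (SE 0.39, adjusted p = 0.0455), and 2.12 (SE 0.41, adjusted p = 0.00618) without the 3 libraries. Mid1ip1 was called in 11 of 26 alternative fits. The 4 remaining Ctrl_RT libraries reached 83.2 CPM, so that all 7 cold libraries lay above them, and Ctrl_RT 2 and 5 were the high ones.

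Srebf1, which encodes SREBP1, lay between 584 and 872 CPM in Ctrl_RT (median 715) and between 978 and 1697 CPM in Ctrl_CE (median 1271). No cold library overlapped with any Ctrl_RT library. The log2 fold change was 0.86 (SE 0.22, adjusted p = 0.0257), and 0.93 (SE 0.28, adjusted p = 0.0788) without the 3 libraries, so the call was lost while the size held. Mlxipl, which encodes ChREBP, had a log2 fold change of 0.73 (adjusted p = 0.0483) and 0.79 (adjusted p = 0.176) in the same order.

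Among the enzymes, Acaca (acetyl-CoA carboxylase 1) ranged from 288.2 to 1333 CPM in Ctrl_RT (median 626) and from 883 to 2638 CPM in Ctrl_CE (median 1549), a log2 fold change of 1.27 (SE 0.43, adjusted p = 0.0495). Me1, the malic enzyme that supplies NADPH, had medians of 580 and 2878 CPM and a log2 fold change of 1.86 (SE 0.56, adjusted p = 0.0343). Thrsp, a lipogenic regulator of adipocytes, had medians of 980 and 3078 CPM and a log2 fold change of 1.41 (SE 0.44, adjusted p = 0.0403). All 3 lost the call without the 3 libraries, at adjusted p = 0.179, 0.0622 and 0.168, with log2 fold changes of 1.32, 2.26 and 1.44. Fasn (fatty acid synthase) and Acly (ATP citrate lyase) did not pass in either fit. Fasn ranged from 3068 to 26904 CPM in Ctrl_RT and from 10993 to 54724 CPM in Ctrl_CE (log2 fold change 1.60, SE 0.58, adjusted p = 0.0632), and Acly had medians of 943 and 6587 CPM (log2 fold change 1.82, SE 0.69, adjusted p = 0.0726). Scd1, the stearoyl-CoA desaturase, had medians of 38908 and 82331 CPM, with a log2 fold change of 0.81 (SE 0.45, adjusted p = 0.208).

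The spread had a pattern in the mice. Ctrl_CE 4 was the lowest cold library for 14 of the 21 genes and Ctrl_RT 5 the highest Ctrl_RT library for 12. Summed over the list, Ctrl_CE 4 stood at 32210 CPM, below all 7 Ctrl_RT libraries, and the other 6 cold libraries at 113559 CPM or more. Ctrl_RT libraries lay between 35545 and 102510 CPM. For Scd1 alone, Ctrl_CE 4 was at 8987 CPM and the lowest Ctrl_RT library at 27036 CPM. In the inguinal fat (iWAT) of the same mice, Ctrl_CE 4 was again the lowest of its group at 112303 CPM and Ctrl_RT 5 the highest of its group at 158936 CPM. The order did not hold for every mouse or list. Ctrl_CE 7 was the highest cold mouse in eWAT at 198718 CPM and in iWAT the lowest but Ctrl_CE 4, at 147572 CPM. Summed over the cholesterol genes, Ctrl_CE 4 was the lowest cold mouse in eWAT (1519 CPM) and in the middle of its group in iWAT (2996 CPM), whereas Ctrl_CE 7 was the highest in eWAT (4702 CPM) and the lowest in iWAT (2484 CPM).

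**Figure D3:**
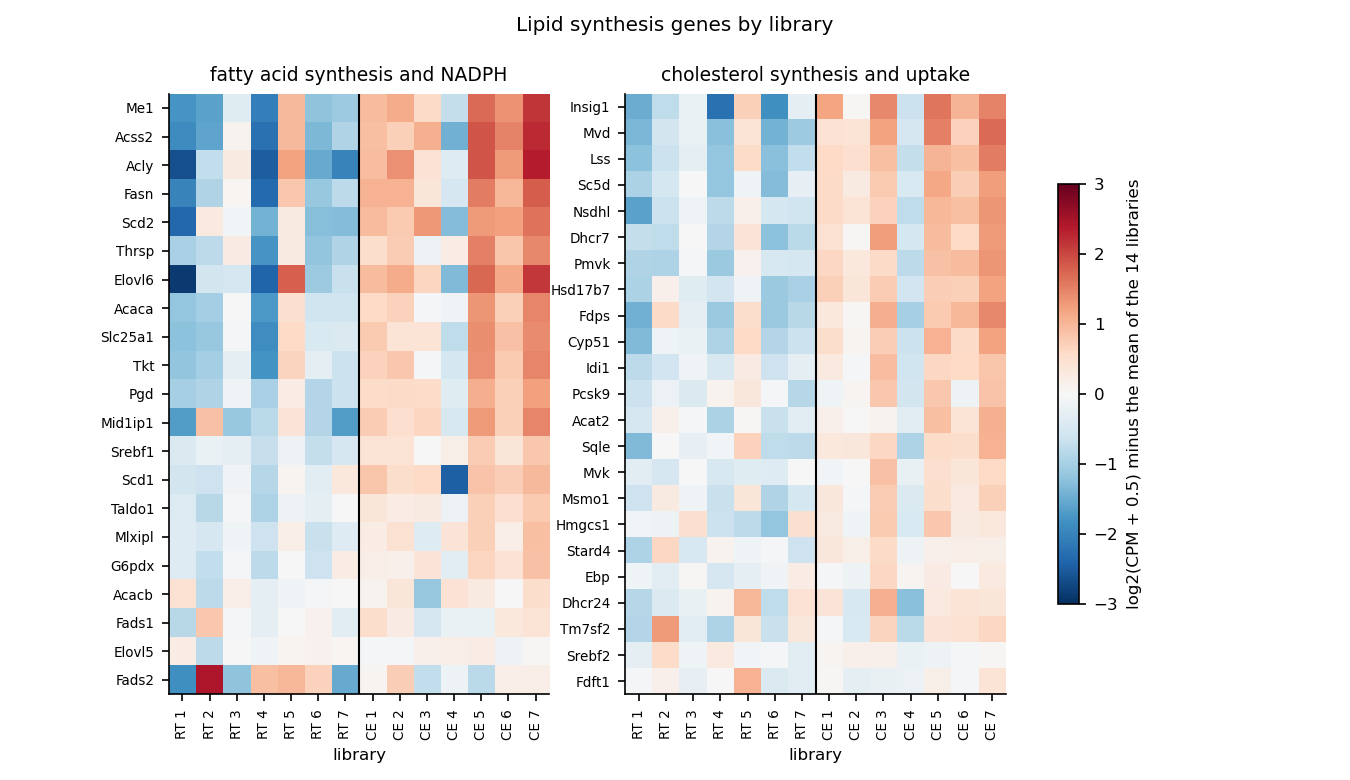
Levels of the genes of fatty acid and cholesterol synthesis in the 14 libraries, 1 column per library (Ctrl_RT left of the line, Ctrl_CE right) and 1 row for each gene drawn, as log2(CPM + 0.5) minus the gene's mean over the libraries, red above and blue below it. Most rows are higher in the cold, and over the whole lists Ctrl_CE 4 was lowest of the cold libraries for 14 of 21 and 23 of 25 genes and Ctrl_RT 5 highest of the Ctrl_RT libraries for 12 and 15.

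Cholesterol synthesis and uptake gave calls in both fits. Of 25 genes, 11 were called higher and 0 lower with 7 Ctrl_RT libraries (median log2 fold change 0.81), and 5 were called higher and 0 lower without the 3 libraries (median 1.14). Mvd, Lss and Hsd17b7, enzymes of the pathway, were among the genes that passed in both. The stretch of 150 bases before the start of transcription is shown for the 3 enzymes and for Insig1, the sterol sensor that holds SREBPs back, since these genes were called higher with 7 Ctrl_RT libraries. The sequences are those of RefSeq on GRCm38.p6, written 5′ to 3′ on the strand of the gene. Capitals mark CCAAT boxes (CCAAT or, on the other strand, ATTGG), known as sites for NF-Y beside SREBP sites, and the E-box CACGTG, a letter match for USF and other basic helix-loop-helix factors.
Hsd17b7 (chr1:169969206-169969355, minus strand): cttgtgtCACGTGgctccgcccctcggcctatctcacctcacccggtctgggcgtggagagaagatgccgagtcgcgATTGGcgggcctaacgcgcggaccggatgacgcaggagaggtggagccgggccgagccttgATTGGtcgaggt
Mvd (chr8:122443423-122443572, minus strand): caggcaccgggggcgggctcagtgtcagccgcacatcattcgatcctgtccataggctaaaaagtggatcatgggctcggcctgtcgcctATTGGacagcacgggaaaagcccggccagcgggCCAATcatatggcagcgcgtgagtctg
Lss (chr10:76531455-76531604, plus strand): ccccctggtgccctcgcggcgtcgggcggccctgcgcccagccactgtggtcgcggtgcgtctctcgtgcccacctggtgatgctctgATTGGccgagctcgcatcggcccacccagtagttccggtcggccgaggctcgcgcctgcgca
Insig1 (chr5:28071262-28071411, plus strand): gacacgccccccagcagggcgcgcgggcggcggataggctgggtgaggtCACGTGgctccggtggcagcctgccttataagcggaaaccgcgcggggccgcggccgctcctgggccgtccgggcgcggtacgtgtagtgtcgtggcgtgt
Hsd17b7 and Mvd held 2 CCAAT boxes each and Lss 1, and Insig1 none, while Hsd17b7 and Insig1 each held 1 E-box in this stretch.

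In the full promoter windows of 250 bases before to 50 after the start, 17 of the 25 cholesterol genes were matched, with 20 windows. A CCAAT box stood in 16 of the 20 windows (80.0%), against 37.4% of all 32851 windows of the same length. The E-box stood in 4 windows (20%), against 7.15% of all. The sterol element TCACNCCAC stood in 1 window (5.0%), against 1.24% of all, and that window was of Hmgcs1. For the fatty acid genes, 18 of 21 were matched with 23 windows, of which 13 held a CCAAT box (56.5%), 3 an E-box (13%) and 1 the sterol element (4.35%). Both strands were searched, and the 3 motifs share no letters that make one imply another. A match describes the letters only.

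Mvd (mevalonate diphosphate decarboxylase) ranged from 10.7 to 39.7 CPM in Ctrl_RT (median 13.7) and from 20.7 to 96.5 CPM in Ctrl_CE (median 47.9). The log2 fold change was 1.58 (SE 0.42, adjusted p = 0.0262), and 1.91 (SE 0.51, adjusted p = 0.0446) without the 3 libraries. The groups overlapped through the lowest cold libraries, Ctrl_CE 2 and 4, and the highest Ctrl_RT libraries, replicates 3 and 5. Lss (lanosterol synthase) had medians of 45.2 and 142 CPM, with log2 fold changes of 1.35 (SE 0.36, adjusted p = 0.0269) and 1.64 (SE 0.43, adjusted p = 0.0425). Hsd17b7 ranged from 8.87 to 21.9 CPM (median 13.04) and from 12.97 to 46.3 CPM (median 32.8), with log2 fold changes of 1.16 (SE 0.26, adjusted p = 0.0154) and 1.51 (SE 0.31, adjusted p = 0.00845). All cold libraries but Ctrl_CE 4 lay above all 7 Ctrl_RT libraries.

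Insig1 had medians of 285.1 and 1090 CPM and was called with 7 Ctrl_RT libraries only (log2 fold change 1.61, adjusted p = 0.0307, and 1.85, adjusted p = 0.0615, without the 3). Stard4, a sterol carrier, was called without the 3 libraries only (0.72, adjusted p = 0.0183, against 0.37, adjusted p = 0.137). Srebf2, which encodes SREBP2, had log2 fold changes of -0.02 and 0.20, at adjusted p = 0.92 and 0.303. Ctrl_CE 4 was the lowest cold library for 23 of the 25 cholesterol genes.

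Of 17 genes of triglyceride synthesis and glyceroneogenesis, 4 were called higher and 0 lower with 7 Ctrl_RT libraries (median log2 fold change 0.37), and 0 higher and 1 lower without the 3 (median 0.24). Gpd1, which makes glycerol 3-phosphate from glucose, lay between 934 and 2229 CPM in Ctrl_RT (median 1362) and between 2270 and 5739 CPM in Ctrl_CE (median 3808), with no overlap. Its log2 fold change was 1.33 (SE 0.32, adjusted p = 0.0216), and 1.32 (SE 0.40, adjusted p = 0.078) without the 3 libraries. Agpat2 (1.38, adjusted p = 0.0219) and Dgat2 (0.99, adjusted p = 0.0396), which add the second and the last acyl chain, were likewise called with 7 Ctrl_RT libraries only, and stood at 1.38 (adjusted p = 0.0786) and 0.96 (adjusted p = 0.216) without the 3. Pck1, the enzyme of glyceroneogenesis, ranged from 309 to 5436 CPM in Ctrl_RT (median 2669) and from 588 to 2405 CPM in Ctrl_CE (median 1160). The 4 remaining Ctrl_RT libraries, from 2669 to 5436 CPM, all lay above the cold libraries, and Ctrl_RT 5 was the lowest of all 14. The log2 fold change was -1.05 (SE 0.39, adjusted p = 0.0677) with 7 and -1.55 (SE 0.31, adjusted p = 0.00754) with 4 Ctrl_RT libraries.

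Of 19 genes of glucose uptake and glycogen, 6 were called higher and 1 lower with 7 Ctrl_RT libraries, and 2 higher and 1 lower without the 3. Hk2, the hexokinase induced by insulin, passed in both fits, with medians of 171 and 342 CPM and log2 fold changes of 0.81 (SE 0.24, adjusted p = 0.0339) and 1.07 (SE 0.27, adjusted p = 0.0344). Ppp1r3b, a subunit that directs protein phosphatase 1 to glycogen, ranged from 6.05 to 24.9 CPM in the 4 remaining Ctrl_RT libraries and from 35.03 to 365 CPM in the cold. Ctrl_RT 5 alone was at 273.8 CPM, and the log2 fold change was 1.74 (adjusted p = 0.102) with it and 3.46 (SE 0.73, adjusted p = 0.011) without the 3 libraries. Gys2 (glycogen synthase 2) had medians of 10.3 and 60.3 CPM and log2 fold changes of 2.12 (SE 0.56, adjusted p = 0.0263) and 2.34 (SE 0.64, adjusted p = 0.0514). Slc2a4, the insulin-responsive glucose transporter GLUT4, had log2 fold changes of 0.76 (adjusted p = 0.0464) and 0.68 (adjusted p = 0.252). Hk1 was called lower with 7 Ctrl_RT libraries (-1.63, adjusted p = 0.0498), and the part of germ cell RNA in this was not tested. Ctrl_RT 4 and 5, the libraries with the highest germ cell lists, held 217 and 438 CPM of Hk1, and the cold libraries at most 54.5 CPM. Without the 3 libraries its log2 fold change was -0.09 (adjusted p = 1).

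Lipolysis and the handling of fatty acids gave calls that changed with the 3 libraries. Over all genes, 1.46% were called higher with 7 Ctrl_RT libraries and 0.914% lower without the 3. Of 17 genes of lipolysis and lipid droplets, 2 were called higher with 7 Ctrl_RT libraries, the droplet coat gene Plin2 (1.16, adjusted p = 0.0215) and the fatty acid binding protein gene Fabp5 (1.25, adjusted p = 0.0296). Neither was called without the 3 libraries (1.08, adjusted p = 0.0995, and 1.18, adjusted p = 0.147), where Aqp7, the glycerol channel, was called lower (-0.74, SE 0.16, adjusted p = 0.0123). With 7 Ctrl_RT libraries Aqp7 stood at -0.43 (adjusted p = 0.109). The lipases did not pass: Pnpla2 (adipose triglyceride lipase) had log2 fold changes of -0.27 (SE 0.20, adjusted p = 0.388) and -0.58 (SE 0.19, adjusted p = 0.11), and Lipe (hormone-sensitive lipase) 0.12 (SE 0.15, adjusted p = 0.644) and -0.15 (SE 0.14, adjusted p = 0.761). Of 10 genes around lipoprotein lipase, edgeR called 0 with 7 Ctrl_RT libraries, 2 had an unadjusted p under 0.05, and DESeq2 called 1. Without the 3, Angptl8 was called higher (4.00, SE 0.92, adjusted p = 0.0197) and Angptl4 lower (-1.37, SE 0.36, adjusted p = 0.0386). With 7 Ctrl_RT libraries Angptl8 stood at 2.26 and Angptl4 at -0.96 (adjusted p = 0.103). Both encode inhibitors of the lipase, known as products of fed and fasted fat. Ctrl_RT 5 was the extreme of its group in both, at 156 CPM for Angptl8, against a range of 11.6 to 286.3 CPM in the cold, and at 63.5 CPM for Angptl4, against 127 to 407 CPM.

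A few genes through which hormones and metabolites act on adipocytes were called lower in the cold. Of 29 genes of adrenergic and cAMP signalling, Adrb3 and Adcy5 were called lower in both fits and 0 higher, with list medians of -0.02 and -0.04. With 7 Ctrl_RT libraries, 2 of 29 is near the background of 6.79%, and without the 3 libraries the background was 0.914%. Adrb3, the beta-3 adrenergic receptor of adipocytes, ranged from 414 to 1673 CPM in Ctrl_RT (median 1053) and from 495 to 891 CPM in Ctrl_CE (median 595). This gave a log2 fold change of -0.72 (SE 0.23, adjusted p = 0.0404), and -1.12 (SE 0.18, adjusted p = 0.00146) without the 3 libraries. Ctrl_RT 2, 4 and 5 held the 3 lowest values of their group, and the other 4, at 1053 CPM or more, lay above all cold libraries. Adrb3 was called in 10 of 26 alternatives, and the call with 7 Ctrl_RT libraries was lost on leaving out any 1 of the cold libraries. Adcy5, an adenylate cyclase, which makes cAMP, had medians of 343 and 124 CPM, with log2 fold changes of -1.19 (SE 0.29, adjusted p = 0.0204) and -1.55 (SE 0.25, adjusted p = 0.00154).

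Of 19 receptors for metabolites and hormones, 1 was called higher and 2 lower with 7 Ctrl_RT libraries, and 0 higher and 4 lower without the 3. Over all genes, 6.79% and 0.914% were called lower in these fits. Hcar1, the lactate receptor that restrains lipolysis, ranged from 44.2 to 326 CPM in Ctrl_RT (median 146) and from 48.8 to 96.5 CPM in Ctrl_CE (median 72.0). Its log2 fold change was -1.21 (SE 0.32, adjusted p = 0.0265), and -1.73 (SE 0.24, adjusted p = 0.000476) without the 3 libraries. Sctr, the secretin receptor, ranged from 6.07 to 31.7 CPM (median 21.8) and from 5.29 to 16.3 CPM (median 6.53), with log2 fold changes of -1.37 (SE 0.30, adjusted p = 0.015) and -1.75 (SE 0.26, adjusted p = 0.000979). In both genes Ctrl_RT 2 and 5 lay below the highest cold library, and the 4 remaining Ctrl_RT libraries lay above all cold libraries. Hcar2, the receptor for 3-hydroxybutyrate and niacin, and Acvr1c, the activin-like receptor ALK7, were called without the 3 libraries only, at -1.18 (SE 0.20, adjusted p = 0.0023) and -0.93 (SE 0.11, adjusted p = 0.000296). With 7 Ctrl_RT libraries they stood at -0.66 (adjusted p = 0.109) and -0.55 (adjusted p = 0.0504). Ptger3, a prostaglandin E2 receptor, was called higher with 7 libraries only (1.51, adjusted p = 0.0295, and 1.52, adjusted p = 0.127).

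**Figure D4:**
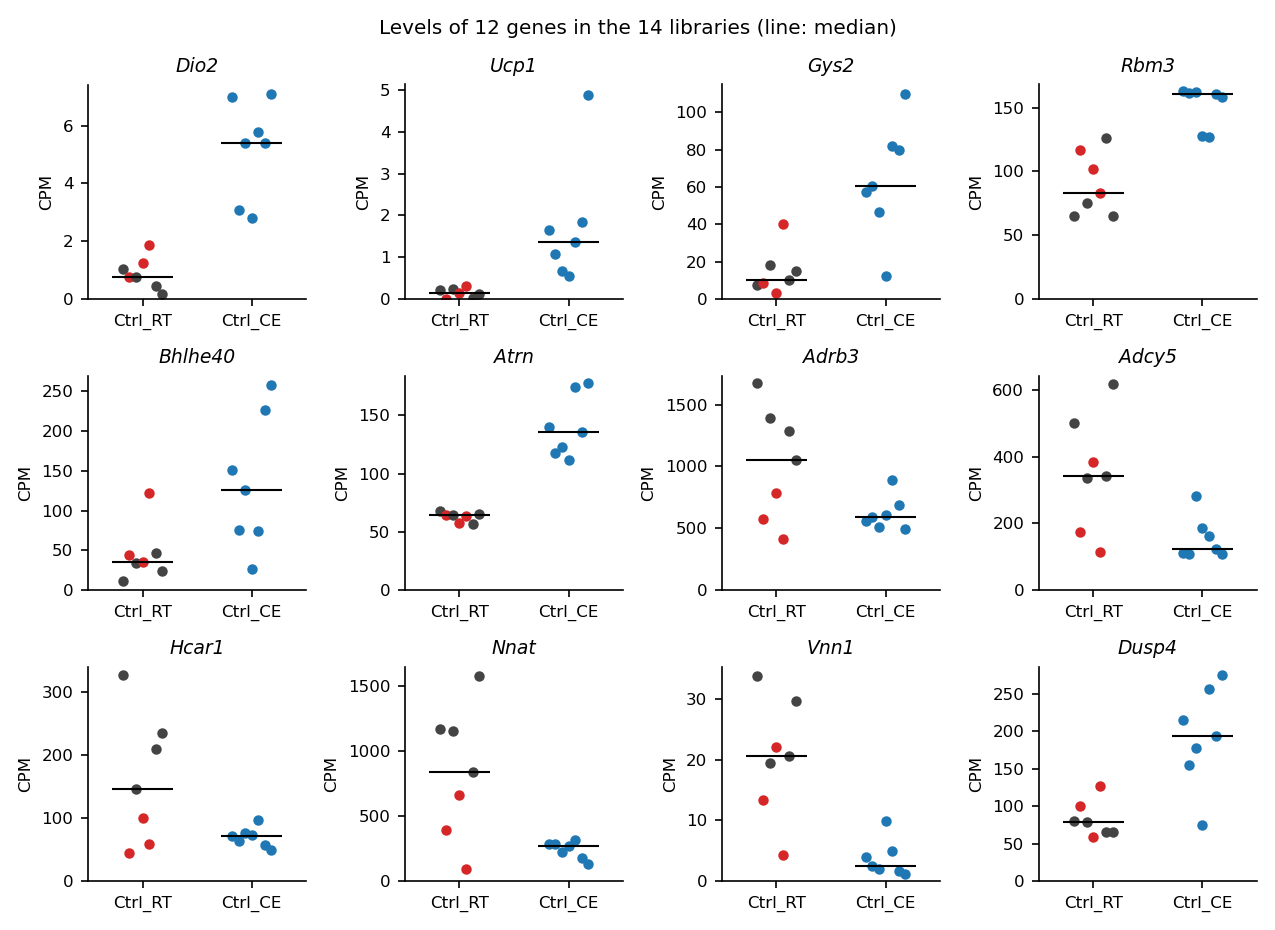
Levels (CPM, linear axes from 0) of selected genes in each of the 7 Ctrl_RT and 7 Ctrl_CE libraries, 1 point per mouse, with Ctrl_RT 1, 3, 6 and 7 in grey, Ctrl_RT 2, 4 and 5 in red, Ctrl_CE in blue and a line at the group median. Dio2 and Atrn do not overlap between the groups, whereas for Adrb3 and Hcar1 some of the 3 libraries fall into the range of the cold mice.

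The list of thermogenic genes summed to between 770 and 1048 CPM in Ctrl_RT and between 977 and 1159 CPM in Ctrl_CE. DESeq2 called 6 of its genes higher and 1 lower with 7 Ctrl_RT libraries. Of 26 measured genes of 27 listed, edgeR called 3 higher with 7 Ctrl_RT libraries (median log2 fold change 0.31) and 2 without the 3 (median 0.45), and 0 lower in either. The shares of all genes called higher in these fits were 1.46% and 0.486%. Dio2, the deiodinase that activates thyroid hormone inside cells, was called in both. It lay between 0.174 and 1.87 CPM in Ctrl_RT (median 0.76) and between 2.82 and 7.08 CPM in Ctrl_CE (median 5.41), with no overlap. For this gene the log2 fold change was 2.54 (SE 0.50, adjusted p = 0.01), and 3.09 (SE 0.63, adjusted p = 0.00879) without the 3 libraries. Ucp1 lay between 0 and 0.312 CPM in Ctrl_RT and between 0.55 and 4.89 CPM in Ctrl_CE, also with no overlap, and had log2 fold changes of 3.47 (SE 1.0, adjusted p = 0.0308) and 3.49 (SE 1.25, adjusted p = 0.148). A level under 5 CPM in every library is low, and the brown adipocyte list as a whole summed to between 33.5 and 51.6 CPM in Ctrl_RT and between 38.7 and 78.4 CPM in Ctrl_CE. Elovl3, a fatty acid elongase of brown fat, was called without the 3 libraries (4.64, SE 1.10, adjusted p = 0.0241), where Ctrl_RT 5 had stood at 2.46 CPM and the 4 remaining libraries at no more than 0.242 CPM. With 7 Ctrl_RT libraries Elovl3 stood at 2.48 and was not called. Ppargc1a, the coactivator of mitochondrial biogenesis, had medians of 8.01 and 12.8 CPM and did not pass (0.58, SE 0.25, adjusted p = 0.11, and 0.62, SE 0.32, adjusted p = 0.362), nor did Cidea (0.26, adjusted p = 0.698, and 0.23, adjusted p = 0.932).

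Of 26 genes of fatty acid oxidation and ketogenesis, 4 were called lower with 7 Ctrl_RT libraries and 5 without the 3, and 0 higher in either, with list medians of 0.08 and -0.13. The shares of all genes called lower were 6.79% and 0.914%. Vnn1, Ephx2 and Cyp4f17 were among those called in both, and they encode a pantetheinase, a soluble epoxide hydrolase and a cytochrome P450. In 26 alternative fits, Vnn1 was called in 25, Ephx2 in 12 and Cyp4f17 in 22. Vnn1 ranged from 4.26 to 33.8 CPM in Ctrl_RT (median 20.7) and from 1.15 to 9.89 CPM in Ctrl_CE (median 2.52), with log2 fold changes of -2.45 (SE 0.43, adjusted p = 0.00529) and -2.80 (SE 0.42, adjusted p = 0.00091). Its lowest Ctrl_RT library was replicate 5 and its highest cold library replicate 4. The enzymes of the mitochondrial oxidation spiral itself gave no call.

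Of 17 adipocyte regulators and adipokines, 4 were called higher and 1 lower with 7 Ctrl_RT libraries and 0 higher and 1 lower without the 3. Pparg, the master regulator of adipocytes, had log2 fold changes of 0.71 (adjusted p = 0.0154) and 0.53 (adjusted p = 0.115), and Retn (resistin) 0.70 (adjusted p = 0.0307) and 0.49 (adjusted p = 0.328). Btc, the growth factor betacellulin, was lower in both, at -1.15 (SE 0.32, adjusted p = 0.0281) and -1.57 (SE 0.29, adjusted p = 0.00512). Lep (leptin) ranged from 344 to 1052 CPM (median 654) and from 514 to 2230 CPM (median 1059) and did not pass, at 0.86 (SE 0.30, adjusted p = 0.0558) and 0.83 (SE 0.37, adjusted p = 0.283). Adipoq (adiponectin) had log2 fold changes of -0.31 (adjusted p = 0.349) and -0.67 (adjusted p = 0.0857).

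Of 17 genes of insulin signalling, edgeR called 0 with 7 Ctrl_RT libraries, with 4 at an unadjusted p under 0.05 and 0 called by DESeq2. Pde3b was called lower without the 3 libraries (-0.63, SE 0.12, adjusted p = 0.00691), against -0.33 and no call with 7, and the list medians were 0.14 and -0.02. Pde3b is the phosphodiesterase through which insulin lowers cAMP. Its cold libraries lay between 268 and 433 CPM and the 4 remaining Ctrl_RT libraries at 470 CPM or more.

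Of 19 clock genes, 7 were called higher and 1 lower with 7 Ctrl_RT libraries, and 2 higher and 0 lower without the 3. Over all genes, 1.46% were called higher and 6.79% lower with 7, and 0.486% and 0.914% without the 3. Bhlhe40 and Bhlhe41, repressors of the clock (DEC1 and DEC2), were called in both fits. In 26 alternative fits, Bhlhe40 was called in 12 and Bhlhe41 in 15. Bhlhe40 had medians of 35.03 and 126 CPM, with log2 fold changes of 1.56 (SE 0.50, adjusted p = 0.0419) and 2.20 (SE 0.60, adjusted p = 0.0465), and Bhlhe41 medians of 14.3 and 36.02 CPM, with 1.03 (SE 0.32, adjusted p = 0.0391) and 1.52 (SE 0.35, adjusted p = 0.0188). Dbp (1.37, adjusted p = 0.0246), Per2 (0.99, adjusted p = 0.0294) and Nr1d1 (0.59, adjusted p = 0.0322) were called with 7 libraries only. Npas2, an activator of the clock, lay between 5.53 and 12.9 CPM in Ctrl_RT and between 1.36 and 5.24 CPM in Ctrl_CE, with no overlap. Its log2 fold change was -1.31 (SE 0.39, adjusted p = 0.0336), and -1.56 (SE 0.44, adjusted p = 0.0586) without the 3 libraries. By the study's methods all tissues were taken in the morning of the light phase, and the hour of each mouse is not given in the sources used here.

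Among 24 immediate early and AP-1 factors, Gadd45a, Dusp4 and Maff were called higher in both fits and 0 lower. Dusp4, a phosphatase of MAP kinases, ranged from 59.2 to 128 CPM in Ctrl_RT (median 79.2) and from 75.6 CPM upwards in Ctrl_CE (median 194), with log2 fold changes of 1.23 (SE 0.26, adjusted p = 0.0144) and 1.42 (SE 0.32, adjusted p = 0.0188). Only Ctrl_CE 4 fell into the range of the Ctrl_RT libraries. Gadd45a, a stress-induced gene, had medians of 13.7 and 41.4 CPM, with log2 fold changes of 1.09 (SE 0.31, adjusted p = 0.03) and 1.59 (SE 0.32, adjusted p = 0.00788). Fos itself ranged from 3.11 to 27.5 and from 3.66 to 33.99 CPM and did not pass (-0.17, adjusted p = 0.872, and -0.24, adjusted p = 0.977).

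Of 11 cold- and heat-shock genes, only Rbm3 was called, in both fits. Rbm3, an RNA-binding protein known to rise when cells cool, lay between 65.0 and 126 CPM in Ctrl_RT (median 83.0) and between 127 and 163 CPM in Ctrl_CE (median 161). The groups did not overlap, although the highest Ctrl_RT library, replicate 6, came close to the lowest cold library. The log2 fold change was 0.74 (SE 0.13, adjusted p = 0.00515), and 0.86 (SE 0.15, adjusted p = 0.00314) without the 3 libraries. Its relative Cirbp, which is also known for induction by cold, did not pass, at -0.39 (SE 0.17, adjusted p = 0.104) and -0.22 (SE 0.18, adjusted p = 0.68).

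Of 20 imprinted genes, 3 were called lower and 0 higher in each fit, of which Nnat and Peg3 were called in both. The shares of all genes called lower were 6.79% with 7 Ctrl_RT libraries and 0.914% without the 3. Nnat, which encodes neuronatin, a small membrane protein of the endoplasmic reticulum, ranged from 89.3 to 1577 CPM in Ctrl_RT (median 837) and from 131 to 315 CPM in Ctrl_CE (median 269). Its log2 fold change was -1.81 (SE 0.50, adjusted p = 0.0286), and -2.31 (SE 0.47, adjusted p = 0.00845) without the 3 libraries, where the groups did not overlap. Ctrl_RT 5, at 89.3 CPM, was the lowest of all 14 libraries. Peg3, a zinc-finger protein, had medians of 79.3 and 45.1 CPM, with log2 fold changes of -1.16 (SE 0.30, adjusted p = 0.0253) and -1.45 (SE 0.30, adjusted p = 0.00845). Zdbf2 was called with 7 Ctrl_RT libraries only (-3.22, adjusted p = 0.0401, and -0.64, adjusted p = 0.875), as Ctrl_RT 4 and 5 held 10.8 and 17.9 CPM and every other control-diet library at most 1.33 CPM. Cdkn1c, an inhibitor of cyclin-dependent kinases, was called without the 3 libraries only (-0.71, adjusted p = 0.0246, against -0.53, adjusted p = 0.0579).

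Of 22 genes of collagens and matrix, edgeR called 0 in either fit, with 5 at an unadjusted p under 0.05 in each, 0 called by DESeq2, and list medians of -0.11 and -0.29. Of 12 glucocorticoid-induced genes it called 0, with 1 at an unadjusted p under 0.05 in each fit, 1 called by DESeq2, and list medians of -0.04 and -0.13. Of 15 complement genes, C2, a protease of the classical pathway, was called lower in both, with medians of 92.2 and 49.9 CPM and log2 fold changes of -0.86 (SE 0.22, adjusted p = 0.0252) and -1.16 (SE 0.20, adjusted p = 0.00235). The complement list had medians of -0.07 and -0.06.

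Outside these lists, the 15 higher and 15 lower genes of largest change among those called in both fits were named by rule, with the 10 of smallest p. Saa1, which encodes the acute-phase protein serum amyloid A1, had the largest increase. It was at or below 0.416 CPM in all 7 Ctrl_RT libraries, and at 8.25, 12.4, 35.2 and 4.8 CPM in Ctrl_CE 3, 4, 5 and 6 but at 0.121, 0.454 and 0.0499 CPM in Ctrl_CE 1, 2 and 7, so that the groups overlapped. That made a log2 fold change of 5.83 (SE 1.28, adjusted p = 0.0152), and 6.77 (SE 1.76, adjusted p = 0.0386) without the 3 libraries. As Saa1 has near-identical neighbours that share reads, its count is uncertain. Other increases were in Gm14257 (2.78 and 4.67), Kng2 (2.29 and 2.00), which encodes a kininogen, and Myh7b (2.04 and 3.42), a myosin heavy chain gene. Adap1 (1.75 and 2.03), Dnmt3l (1.69 and 2.65), Parm1 (1.51 and 1.95) and Spry4, a feedback inhibitor of receptor tyrosine kinases (1.43 and 1.43), were also higher, each value being the log2 fold change with 7 and with 4 Ctrl_RT libraries. Myh7b and Dnmt3l were called in 11 and 13 of 26 alternative fits. Kng2 lay between 0.168 and 0.622 CPM in Ctrl_RT and between 0.825 and 2.98 CPM in Ctrl_CE, with no overlap.

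With 7 Ctrl_RT libraries the largest decrease was in Il22ra2, the decoy receptor for interleukin 22, at -3.72 (SE 0.77, adjusted p = 0.0128) and -2.50 (SE 0.60, adjusted p = 0.0246), with Ctrl_RT 2 at 13.9 CPM and no other library above 2.43 CPM. Without the 3 libraries Acta1, skeletal muscle actin, and Vnn1 lay below it. Acta1 was at -2.66 and -3.35, and here Ctrl_RT 7 was at 432 CPM and Ctrl_RT 6 at 63.4 CPM, against 33.1 CPM or less in all other libraries. The skeletal muscle list summed to 454 CPM in Ctrl_RT 7 and to at most 74.6 CPM in the other libraries. Without Ctrl_RT 7 the log2 fold change of Acta1 with the 6 other Ctrl_RT libraries was -0.87 and the call was lost (adjusted p = 0.142). Mycl (-1.97 and -2.40), Smyd1 (-1.58 and -1.92), Zyg11a (-1.54 and -1.89) and Hs3st6 (-1.28 and -1.29) were lower in both fits. Mycl was called in 12 of 26 alternative fits. St6galnac5, a sialyltransferase, ranged from 7.53 to 28.2 CPM in Ctrl_RT (median 16.6) and from 4.26 to 8.45 CPM in Ctrl_CE (median 7.07), with log2 fold changes of -1.53 (SE 0.26, adjusted p = 0.0045) and -1.85 (SE 0.25, adjusted p = 0.00032). Only Ctrl_RT 2 fell into the range of the cold group.

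The 10 genes of smallest p included Kng2, described above, and 9 with log2 fold changes between -0.69 and 1.16 in the 2 fits. Atrn, the attractin receptor gene, lay between 56.3 and 67.8 CPM in Ctrl_RT (median 64.2) and between 111 and 178 CPM in Ctrl_CE (median 136), with log2 fold changes of 1.16 (SE 0.15, adjusted p = 0.000403) and 1.15 (SE 0.19, adjusted p = 0.00208). Leaving out Ctrl_RT 2, 4 and 5 thus moved its value by 0.01. Lrrfip1 (0.70 and 0.64), Tatdn2 (0.72 and 0.81), Mtss1 (0.65 and 0.69), Ampd3, the AMP deaminase (0.94 and 0.95), and Hif1a, the hypoxia-induced factor (0.69 and 0.71), were higher with no overlap. Hif1a lay between 68.8 and 90.8 CPM in Ctrl_RT and between 91.6 and 147 CPM in Ctrl_CE. Klhl21 was lower with no overlap, between 40.5 and 54.5 CPM in Ctrl_RT and between 26.98 and 39.01 CPM in Ctrl_CE (-0.60, SE 0.09, adjusted p = 0.00196, and -0.69, SE 0.10, adjusted p = 0.000476). Tpi1, a glycolytic enzyme (0.87 and 0.84), and the tubulin gene Tubb5 (1.12 and 1.13) were higher in all cold libraries but Ctrl_CE 4, which overlapped with the Ctrl_RT libraries.

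Of the 104 genes called higher in both fits, Ctrl_CE 4 was the lowest cold library in 73 and Ctrl_RT 5 the highest Ctrl_RT library in 58. Of the 126 called lower in both fits, Ctrl_CE 4 was the highest cold library in 59 and Ctrl_RT 5 the lowest Ctrl_RT library in 71. At the other end, Ctrl_CE 7 was the highest cold library in 56 of the higher genes and the lowest in 55 of the lower genes. Within these called genes, Ctrl_CE 4 was thus most often nearest to the Ctrl_RT range and Ctrl_CE 7 most often farthest. The genes were picked by calls in these same libraries, and the fit without the 3 libraries did not use Ctrl_RT 5. How often each library was the extreme over all genes was not counted. Ctrl_CE 4 also stood apart in other lists. Its neutrophil markers summed to 105 CPM, against at most 26.5 CPM in the other 13 libraries, and its glucocorticoid-induced genes to 2303 CPM, against at most 1472 CPM. It was the highest cold library for 11 of these 12 genes. Its duct list was above 100 CPM and its epididymal list at 30.1 CPM, and the part of these lists in the results was not tested. All 7 cold libraries lay apart from all 7 Ctrl_RT libraries in 38 of the 104 and in 11 of the 126.

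Markers of other cells gave few calls, none of them in both fits apart from the muscle genes Acta1 and Smyd1 and, of the brown adipocyte list, Dio2. Of the lists for macrophages, neutrophils, fibroblasts and preadipocytes, smooth muscle and erythrocytes, edgeR called 0 genes in either fit. Unadjusted p-values under 0.05 were found in 2 of 13, 3 of 8, 1 of 12, 2 of 9 and 2 of 6 genes with 7 Ctrl_RT libraries, and DESeq2 called 1 gene each of the neutrophil, smooth muscle and erythrocyte lists. Ighm of the B cell list (1.61, adjusted p = 0.0263), Nkg7 of the T and NK cell list (1.35, adjusted p = 0.0186), and Pmp22 (0.94, adjusted p = 0.0154) and Mbp (0.75, adjusted p = 0.0206) of the Schwann cell list were called higher with 7 Ctrl_RT libraries and not without the 3. The Schwann cell list as a whole summed to between 172 and 246 CPM in Ctrl_RT and between 223 and 527 CPM in Ctrl_CE. Without the 3 libraries, Cldn5 of the endothelial list (-1.10, adjusted p = 0.00764) and Cldn15 of the mesothelial list (-0.84, adjusted p = 0.0344) were called lower. Neither was called with 7 Ctrl_RT libraries.

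The cold effect on the control diet was then set against that on the MetR diet in a test of the diet by temperature interaction. With all 28 eWAT libraries, edgeR called 1 of 31464 genes (0.00318%), Plekhg6, and 3574 had an unadjusted p under 0.05. Without Ctrl_RT 2, 4 and 5, 372 of 29657 genes were called (1.25%) and 4917 had an unadjusted p under 0.05. The study also left out 1 eWAT library of MetR_RT as an outlier, which both fits keep. Leaving out MetR_RT 7 as well gave 640 of 27786 genes. Among the 372 were 11 of the 21 fatty acid synthesis genes and 12 of the 25 cholesterol genes. All of these had a lower cold effect on MetR than on the control diet. Also among the 372 were 5 of the 19 receptors and 3 of the 20 imprinted genes, with a higher one. In the fit of all 28 libraries, the median log2 fold change in the cold on MetR was -0.72 for the fatty acid genes and -0.45 for the cholesterol genes. Interaction terms without the 3 libraries were -3.63 for Fasn (adjusted p = 0.0402), -2.69 for Mid1ip1 (adjusted p = 0.00953) and -2.93 for Mvd (adjusted p = 0.0221). On the side of the lower genes they were 2.27 for Hcar1 (adjusted p = 0.00263), 2.29 for Sctr (adjusted p = 0.0037), 3.42 for Nnat (adjusted p = 0.00784) and 3.26 for Vnn1 (adjusted p = 0.00483). Dio2 and Rbm3 were not called, at -2.73 (adjusted p = 0.0664) and -0.64 (adjusted p = 0.0945). These calls rest on the 4 remaining Ctrl_RT libraries, which the contrast of the diets shares with the cold effect itself.

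In the iWAT of the same 14 mice, 1584 of 26428 genes were higher in the cold (5.99%) and 2627 were lower (9.94%). Of the genes called in both eWAT fits, 79 of the 104 higher genes and 64 of the 126 lower genes had the same call in iWAT, and 0 and 1 the opposite call. Of the 26 thermogenic genes, 20 were called higher in iWAT, with a median log2 fold change of 1.78. Of the collagen and matrix genes 14 of 22 were lower in iWAT, and of the complement genes 9 of 15. Fatty acid and cholesterol genes were called higher in iWAT in 16 of 21 and 16 of 25.

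A fit over both depots, in which each mouse served as its own control, tested the difference of the cold effects. Of 30875 genes it called 388, of which 110 had a lower cold effect in eWAT (0.356%) and the others a higher one (0.9%), and without the 3 mice 89 higher (0.329%) and 100 lower (0.369%) of 27084. With a mean of at least 1 CPM, 65 genes were higher and 35 lower in both. Pdk4, the kinase that turns off pyruvate dehydrogenase, had a log2 fold change of 1.97 in iWAT and 0.02 in eWAT (difference -2.32, adjusted p = 0.0162, and -2.48, adjusted p = 0.0401, without the 3 mice). Gpat4, an acyltransferase of triglyceride synthesis, had 0.77 in iWAT and -0.34 in eWAT (difference -1.08, adjusted p = 0.00703, and -1.06, adjusted p = 0.0193). Nr4a2, a nuclear receptor induced by cAMP, had 1.25 in iWAT and -0.48 in eWAT (difference -1.66, adjusted p = 0.00703, and -1.76, adjusted p = 0.0153).

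Tubb5 and Ampd3 were on the other side, with 0.31 and 0.13 in iWAT and 1.12 and 0.94 in eWAT (differences of 0.78 each, adjusted p = 0.0182 and 0.018, and 0.77 and 0.73, adjusted p = 0.0499 and 0.0442, without the 3 mice). Ppargc1a, at 2.71 in iWAT and 0.58 in eWAT, differed with all mice (-2.06, adjusted p = 0.0242) but not without the 3 (-2.09, adjusted p = 0.0649). For Dio2 (4.93 in iWAT, difference -2.19, adjusted p = 0.123) and Ucp1 (4.08 in iWAT, difference -0.85, adjusted p = 0.878) a difference between the depots was not shown. Of the 46 genes of fatty acid and cholesterol synthesis, edgeR called 0 for a difference between depots in either fit, with 2 and 1 at an unadjusted p under 0.05 for all mice.

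**Figure D5:**
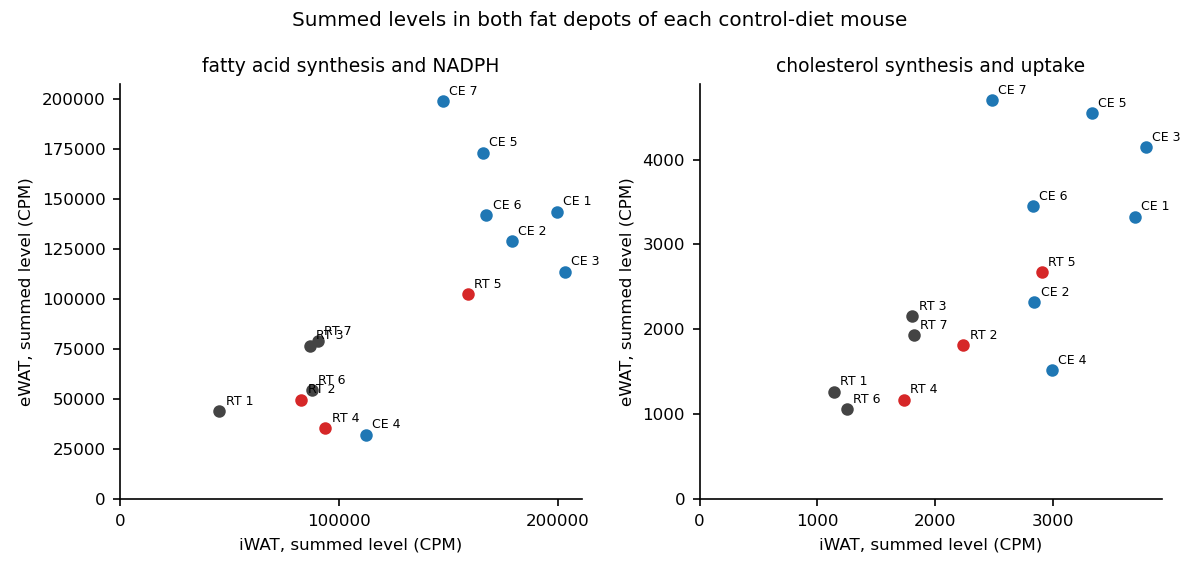
Summed level of the genes of fatty acid synthesis (left) and of cholesterol synthesis (right) in eWAT (vertical axis, CPM) against iWAT (horizontal axis, CPM), 1 point per mouse of the control diet, with Ctrl_RT 1, 3, 6 and 7 in grey, Ctrl_RT 2, 4 and 5 in red and Ctrl_CE in blue. For the fatty acid genes, Ctrl_CE 4 (32210 CPM in eWAT, 112303 CPM in iWAT) is the lowest cold mouse in both depots and Ctrl_RT 5 (102510 and 158936 CPM) the highest room-temperature mouse in both. For the cholesterol genes Ctrl_CE 7 (4702 and 2484 CPM) is the highest cold mouse in eWAT and the lowest in iWAT.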

How the data were processed

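RNA of epididymal fat was sequenced from poly(A) libraries as pairs of 50-base reads in the study (NEBNext Ultra II, NovaSeq). The authors deposited whole-number read counts per gene, not normalized, 1 column per library, made per the labels' processing notes with STAR 2.7.9a and featureCounts 2.0.3 on mm10. The study also quantified transcripts with Salmon 1.9.0, and whether the deposited counts came from it was not tested. Strand setting is not given in the sources used here. Of 56884 gene identifiers, 51948 were paired with a symbol through the reference table. Columns were matched to samples by the library name in the labels.

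Counts of all 28 eWAT libraries were fitted with edgeR 4.0.16 (R 4.3.3; TMM factors, quasi-likelihood test) over genes with at least 10 counts in total, with diet, temperature and their interaction. The contrast was Ctrl_CE against Ctrl_RT, and genes were called at a Benjamini-Hochberg adjusted p under 0.05 over all genes tested and a fold of at least 1.5. The fit was repeated without Ctrl_RT 2, 4 and 5. Both fits contain the 14 MetR libraries, so that all groups share an estimate of the spread. The difference between depots was tested in 28 libraries of the 14 mice with a term for each mouse. Replicates are separate mice. No library pair held identical values. DESeq2 1.42.0 with apeglm 1.24.0 was an alternative. Every test was first run on simulated counts with known changes, whose spread followed the trend over genes and not each gene's own. With 7 Ctrl_RT libraries, 1 of 67 genes changed 1.5-fold, 24 of 67 changed 2-fold and 47 of 66 changed 4-fold were recovered. Without the 3 libraries the numbers were 2, 15 and 43, and for the interaction 0, 8 and 36. A gene that was not called is therefore not shown to be unchanged.

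The libraries to leave out and the gene lists were chosen with earlier results of these data known, so a list's count is no independent evidence. Named are members of the lists, the 15 higher and 15 lower genes with the largest change among genes with a symbol and a mean of at least 1 CPM that were called in both fits, and the 10 of smallest p among those. Depth was between 22625093 and 31508742 counts per library, and 27 count columns, of brown fat in the table shared with iWAT, were unused. Replicate numbers were checked for pairing and did not pair the mice. Promoter windows are those of RefSeq on GRCm38.p6, and no gene coordinates were taken from the count table. Some members of the lists are counted but not reported here by name. Genes overlapping on opposite strands, or with near-identical copies, may share reads.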

Additional observations from a re-analysis of the deposited data

Results flagged for a closer look

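Among 56 genes named or called, each group of 7 was searched for a library set apart from the rest on the log2 scale, and 7 of the 112 combinations of gene and group were found. Chance gives about 1 in 20 groups. In Ctrl_RT the library set apart was replicate 5 each time, as the highest for Dnmt3l (0.671 of the group's whole range), Gadd45a (0.643) and Myh7b (0.659). In Ctrl_CE it was replicate 4 each time, as the highest for Ephx2 (0.585), Rexo5 (0.699) and Sctr (0.588) and as the lowest for Gm14257 (0.625). The 7 of 112 are near that share, and the genes were picked from those called in these same libraries. All 7 cases lie toward the other group. Their genes are among the called genes counted above, so these cases are not a separate observation. Ctrl_RT 5 is also the library with the highest accessory gland and germ cell lists (6701 and 3016 CPM), whereas these lists stood at 0.1 and 9.5 CPM in Ctrl_CE 4. Ctrl_CE 4 in turn had 105 CPM of neutrophil markers, over 100 CPM of duct and 30.1 CPM of epididymal markers and 2303 CPM of glucocorticoid-induced genes. The part of these lists in these values was not tested.

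The cold effect in eWAT was higher than in iWAT for Saa1, by 6.23 on the log2 scale (adjusted p = 0.0483, and 0.0602 without the 3 mice), where 4 of 7 cold eWAT libraries stood above the other 10 control-diet eWAT libraries. It was higher by 0.784 for Ampd3 and by 0.779 for Tubb5, and both were called again without the 3 mice. Plekhg6 was the gene called for the diet by temperature interaction with all 28 libraries, at 2.23 on the log2 scale (adjusted p = 0.0336), with a log2 fold change in the cold of -0.73 on the control diet (SE 0.25, adjusted p = 0.0529).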

How the results depend on the processing

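Counts of calls are given here as percents of the genes tested in each fit. Against 1.46% higher and 6.79% lower genes, the fit without Ctrl_RT 2, 4 and 5 gave 0.486 and 0.914%, that without these and MetR_RT 7 gave 0.979 and 1.44%, and the 14 control-diet libraries alone gave 0.945 and 1.84%. Chosen after seeing the data, a fit also without Ctrl_RT 6 gave 0.268 and 0.781%, and one of the 6 control-diet libraries at or below 100 CPM of reproductive markers gave 0.466 and 0.831%. DESeq2's Wald test called 588 higher and 2470 lower genes, against 460 and 2135, its apeglm shrinkage 744 lower (2.36%), RLE factors 459 and 2165, and edgeR's filterByExpr, which tested fewer genes, 1063 lower (5.88%). A test against a fold of 1.5 (edgeR's glmTreat) called 0 in each direction, with 518 and 5374 at an unadjusted p under 0.05. The replicate block, which has no shared mice behind it (5 of 7 same-numbered pairs correlated above 0.1, between -0.512 and 0.575, and 0 libraries best with their own number), gave 329 higher and 244 lower (0.775%). Leaving out 1 library gave 0.395 to 1.8% higher and 0.274 to 9.34% lower genes. The count of higher genes moved by over 1.5 times without Ctrl_CE 3 (257), 5 (151), 6 (260) or 7 (124) or Ctrl_RT 4 (259), and that of lower genes without Ctrl_CE 1 (626), 2 (1260), 3 (0.908%), 5 (116), 6 (529) or 7 (86) or Ctrl_RT 4 (690) or 5 (576). The cause was not tested.

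The interaction, 1 gene with all libraries, gave 372 without the 3 libraries, 640 also without MetR_RT 7, 164 with filterByExpr, 637 with DESeq2, 0 with the replicate block (3208 at an unadjusted p under 0.05) and 0 to 234 on leaving out 1 library, with 234 without Ctrl_RT 5 and 224 without Ctrl_CE 4. The depot difference, 0.9% higher and 0.356% lower, gave 1.6 and 1.06% without the mouse term, 0.329% higher without the 3 mice, 0.939% lower with filterByExpr, and 0.31 to 2.45% higher and 0.124 to 1.24% lower on leaving out 1 mouse, with both highest values without Ctrl_CE 7.

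Of 113 genes followed over 26 alternatives, 0 reversed. These genes were picked by their calls with or without Ctrl_RT 2, 4 and 5, so this count was partly fixed by the choice. Among all 2135 genes called lower with 7 Ctrl_RT libraries, 353 (16.5%) turned positive without Ctrl_RT 2, 4 and 5. Among the 460 called higher, 0 turned negative. Of the 113 genes followed, 100 were called with 7 Ctrl_RT libraries. Of these 100, 17 were called in every alternative but glmTreat, among them Atrn, Dio2, Rbm3, Hsd17b7, Vnn1, Sctr, Tpi1 and Hif1a. The call was lost in 72 without Ctrl_CE 7, in 54 with the 6 low-marker libraries, in 43 with the 14 control-diet libraries and in 27 with the replicate block. Ucp1 and Saa1 lay under 1 CPM in every Ctrl_RT library, so their levels there rest on few reads. In the cold, Saa1 ranged from 0.0499 to 35.2 CPM among the libraries.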

Other observations

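Macrophage and matrix genes, which gave no call in eWAT, were lower in the cold in the iWAT of the same mice. In iWAT, 9 of 13 macrophage markers and 6 of 12 markers of fibroblasts and preadipocytes were called lower. Csf1r, the receptor of the macrophage growth factor, had a log2 fold change of -0.82 in iWAT and 0.25 in eWAT, and Adgre1 (F4/80) had -1.33 and 0.45. Col1a1, a chain of type I collagen, had -1.98 in iWAT and -0.53 in eWAT (adjusted p = 0.0576 in eWAT). A difference between the depots was not shown for these genes, at adjusted p = 0.12 for Csf1r, 0.0631 for Adgre1 and 0.172 for Col1a1. In eWAT, Col1a1 ranged from 409 to 748 CPM in Ctrl_RT and from 240 to 590 CPM in Ctrl_CE.

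Of the 29 genes of adrenergic and cAMP signalling, 2 were called for a lower cold effect in eWAT than in iWAT with all mice and 1 without the 3 mice. Adcy3, the adenylate cyclase of olfactory and fat cells, had a log2 fold change of 2.00 in iWAT and 0.12 in eWAT (difference -1.72, adjusted p = 0.022, and -1.85, adjusted p = 0.0558, without the 3 mice). Slc25a20, the carrier of acyl-carnitine into mitochondria, had 1.29 in iWAT and 0.09 in eWAT (difference -1.13, adjusted p = 0.0392, and -1.35, adjusted p = 0.049). In eWAT, Adcy3 lay between 20.6 and 34.4 CPM in Ctrl_RT and between 25.7 and 35.5 CPM in Ctrl_CE.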
